A study of Mus musculus with 10 samples.

Results

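Keratin-associated proteins are the small matrix proteins of hair, and their genes, the Krtap family, were followed here in RNA of whole mouse skin. The family was taken as every gene of the deposited count table whose symbol starts with Krtap and a digit, which gave 57 of 46078 genes. They fall into 27 numbered subfamilies. An assignment made here by the first number of the symbol gave 17 high-sulphur, 24 ultra-high-sulphur and 16 glycine-tyrosine genes. Numbers 4, 5, 9, 10, 12, 17, 28, 29 and 31 were taken as ultra-high-sulphur. Numbers 6 to 8 and 19 to 22 were taken as glycine-tyrosine, and the others as high-sulphur. Of the 57, 56 had a read in at least 1 library. Krtap13 had none, and a count of 0 over all 10 libraries allows up to 0.0132 CPM (3 reads, counting error only).

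The skin came from C57BL/6 mice, raised free of specific pathogens, whose skin received 100 µl of live bacterial suspension on alternate days between day 3 and day 19 after birth. The SA group (5 libraries) was given S. aureus of the strain SF8300. The SE group (5 libraries) was given S. epidermidis of the strain Tü3298. All 10 libraries are of an 8 mm back skin punch at day 21, from lightly defatted trunk skin, and no uncolonised skin was analysed here. Whether the libraries of a group are of separate mice is not stated in the labels, nor are sex and litter, so p-values measure only the spread between these libraries.

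Hair shafts are built by keratinocytes that leave the matrix of a growing follicle, fill with hair keratin filaments and then, late in differentiation, make keratin-associated proteins. The proteins sit between the filaments. High-sulphur and ultra-high-sulphur members are rich in cysteine, which cross-links them through disulphide bonds, and glycine-tyrosine members are rich in those other residues and are best known from the shaft cortex. Follicles express these genes while a shaft is growing and not at rest, and back skin of the mouse passes from its first growth phase into rest at about weaning age.

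Each library held between 21140654 and 25417851 gene reads, and 23.1% to 26.7% of all listed reads were not aligned uniquely. The SE libraries SE 3, SE 4 and SE 5 stand apart from the other 7 in these data. They are described below against the other 7 without a test, because the data themselves set them apart. Median differences between the groups are given with and without them for the family and its classes. The same is done for the hair shaft keratins, the inner root sheath and the follicle transcription factors. Levels are in CPM, counts per library scaled to a common total by the TMM method, and comparisons between genes are in CPM per kilobase of exon.

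The genes lie in clusters. In GRCm38, 25 members lie within 960 kb of chromosome 16, from 88610705 to 89571183, and comprise all 16 glycine-tyrosine and 9 high-sulphur genes. Another 23 lie within 444 kb of chromosome 11, from 99550130 to 99993994, of which 8 are high-sulphur and 15 ultra-high-sulphur. The remaining ultra-high-sulphur genes lie on chromosomes 7 (5 genes), 10 (2) and 1 (2). Of the 57, 41 share at least 1 window of 50 exonic bases with another gene, 23 share over 10% of their windows and 2 over 50%, Krtap4-13 at 81.3% and Krtap5-1 at 60.6%. Reads of such stretches can be lost or split between copies, so levels of those genes are uncertain.

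Coding sequences of the classes differ in their shares of cysteine, glycine and tyrosine. The first 90 coding bases (GENCODE annotation of GRCm38, read on the gene's strand, 5′ to 3′) of the member of each class with the highest level per length are shown, with cysteine codons in capitals for the high-sulphur Krtap1-5 and the ultra-high-sulphur Krtap4-1 and with glycine and tyrosine codons in capitals for Krtap8-1.
Krtap1-5, chr11:99580876-99580965, minus strand: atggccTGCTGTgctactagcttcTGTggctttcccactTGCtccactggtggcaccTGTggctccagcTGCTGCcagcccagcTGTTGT
Krtap4-1, chr11:99628093-99628182, minus strand: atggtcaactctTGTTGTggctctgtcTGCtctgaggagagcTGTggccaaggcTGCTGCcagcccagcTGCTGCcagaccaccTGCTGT
Krtap8-1, chr16:89487818-89487907, minus strand: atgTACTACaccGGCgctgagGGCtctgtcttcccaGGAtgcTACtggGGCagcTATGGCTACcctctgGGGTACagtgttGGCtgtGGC
Of the 30 codons in each stretch, 9 in Krtap1-5 and 10 in Krtap4-1 code for cysteine, and 14 in Krtap8-1 for glycine or tyrosine. Over whole coding sequences the median cysteine share was 12.7% in high-sulphur, 37.3% in ultra-high-sulphur and 8.05% in glycine-tyrosine genes, and the median glycine plus tyrosine share was 11.5%, 4.78% and 63.3%. Krtap1-5, at 26.2% cysteine, lay above its class median, and Krtap8-1, at 47.5% glycine plus tyrosine, below its own. Krtap4-1 had 38.5% cysteine. Cysteine made up at least 30% of codons in 19 of 24 ultra-high-sulphur genes, all but Krtap9-3, Krtap12-1, Krtap29-1, Krtap31-1 and Krtap31-2, and less than 30% in 16 of 17 high-sulphur genes, all but Krtap1-3 with 30.6%. Glycine plus tyrosine made up at least 35% in 14 of the 15 glycine-tyrosine genes with a coding sequence, all but Krtap7-1 with 29.9%. That share was also above 35% in 5 genes of the other classes, Krtap16-3 (59.3%, high-sulphur by number) and the ultra-high-sulphur Krtap5-2, Krtap5-3, Krtap28-10 and Krtap28-13 (42% in Krtap28-13).

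Promoters of the family hold a TATA box in 60.8% of cases, against 2.13% over all genes. The 100 bases before the annotated start (RefSeq, GRCm38.p6, gene strand, 5′ to 3′) are shown for 3 genes that are high in SE 3 to SE 5 and low elsewhere, and for Krtap3-2 and Krtap17-1, which have the most even levels, with TATAAA in capitals.
Krtap1-5, chr11:99581017-99581116, minus strand: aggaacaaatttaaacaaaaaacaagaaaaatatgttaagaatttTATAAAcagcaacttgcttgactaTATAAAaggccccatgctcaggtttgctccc
Krtap4-1, chr11:99628240-99628339, minus strand: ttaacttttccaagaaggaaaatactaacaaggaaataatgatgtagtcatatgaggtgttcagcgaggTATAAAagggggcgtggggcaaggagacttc
Krtap8-1, chr16:89487953-89488052, minus strand: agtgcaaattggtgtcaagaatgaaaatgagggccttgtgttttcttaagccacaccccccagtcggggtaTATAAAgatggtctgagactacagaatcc
Krtap3-2, chr11:99556854-99556953, minus strand: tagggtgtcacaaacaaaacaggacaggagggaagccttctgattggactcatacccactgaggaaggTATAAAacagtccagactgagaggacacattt
Krtap17-1, chr11:99993995-99994094, minus strand: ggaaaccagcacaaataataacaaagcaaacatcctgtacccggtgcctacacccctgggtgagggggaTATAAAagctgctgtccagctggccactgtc
All 5 hold the motif close to the start, and Krtap1-5 holds it in 2 places. A RefSeq promoter was matched for 51 members. TATAAA stood wholly within 40 to 20 bases before the start on the gene's strand in 31 of them (60.8%), against 2.13% of the promoters of all 27025 genes. By class the share was 56.2% of high-sulphur, 76.2% of ultra-high-sulphur and 42.9% of glycine-tyrosine promoters. A binding consensus of Hoxc13, the homeobox factor needed for normal hair shafts, was searched on both strands of the 250 bases before the start in its 8 spellings TTAATNAA, TTAATNAG, TTAATNGA, TTAATNGG, TTTATNAA, TTTATNAG, TTTATNGA and TTTATNGG. It was found in 26 of 51 members (51.0%) and in 17.7% of all promoters, with 75% of high-sulphur, 42.9% of ultra-high-sulphur and 35.7% of glycine-tyrosine members. TTTATNAA and its like can overlap the TATA box, whose letters TATAAA read TTTATA on the other strand. A Lef1 core, CTTTGAA or CTTTGTT on either strand of the same window, was found in 12 of 51 (23.5%) against 9.27%, with 43.8% of high-sulphur, 19.1% of ultra-high-sulphur and 7.14% of glycine-tyrosine members (1 of 14). A match is a description of letters and not of binding.

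SE 3, SE 4 and SE 5 held nearly all of the family's RNA. Summed over the 57 genes, the level was 15.2, 8.27, 4.73, 15.3 and 5.09 CPM in SA 1 to SA 5, 8.14 and 12.7 CPM in SE 1 and SE 2, and 482, 235 and 1658 CPM in SE 3, SE 4 and SE 5. SE 1 and SE 2 thus lie within the SA range, and the lowest of the other 3 SE libraries is 15.3-fold above the highest of the 7. The group means were 9.73 ± 5.24 CPM in SA and 479 ± 687 CPM in SE (SD, n = 5 each), so the SE spread exceeds its mean. In bulk skin, fewer cells of a type and less RNA per cell cannot be told apart. In reads, the sums were 108 to 340 in the 7 libraries and 10834, 5140 and 36280 in SE 3, SE 4 and SE 5, where the last is 0.167% of all gene reads of that library.

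**Figure D1:**
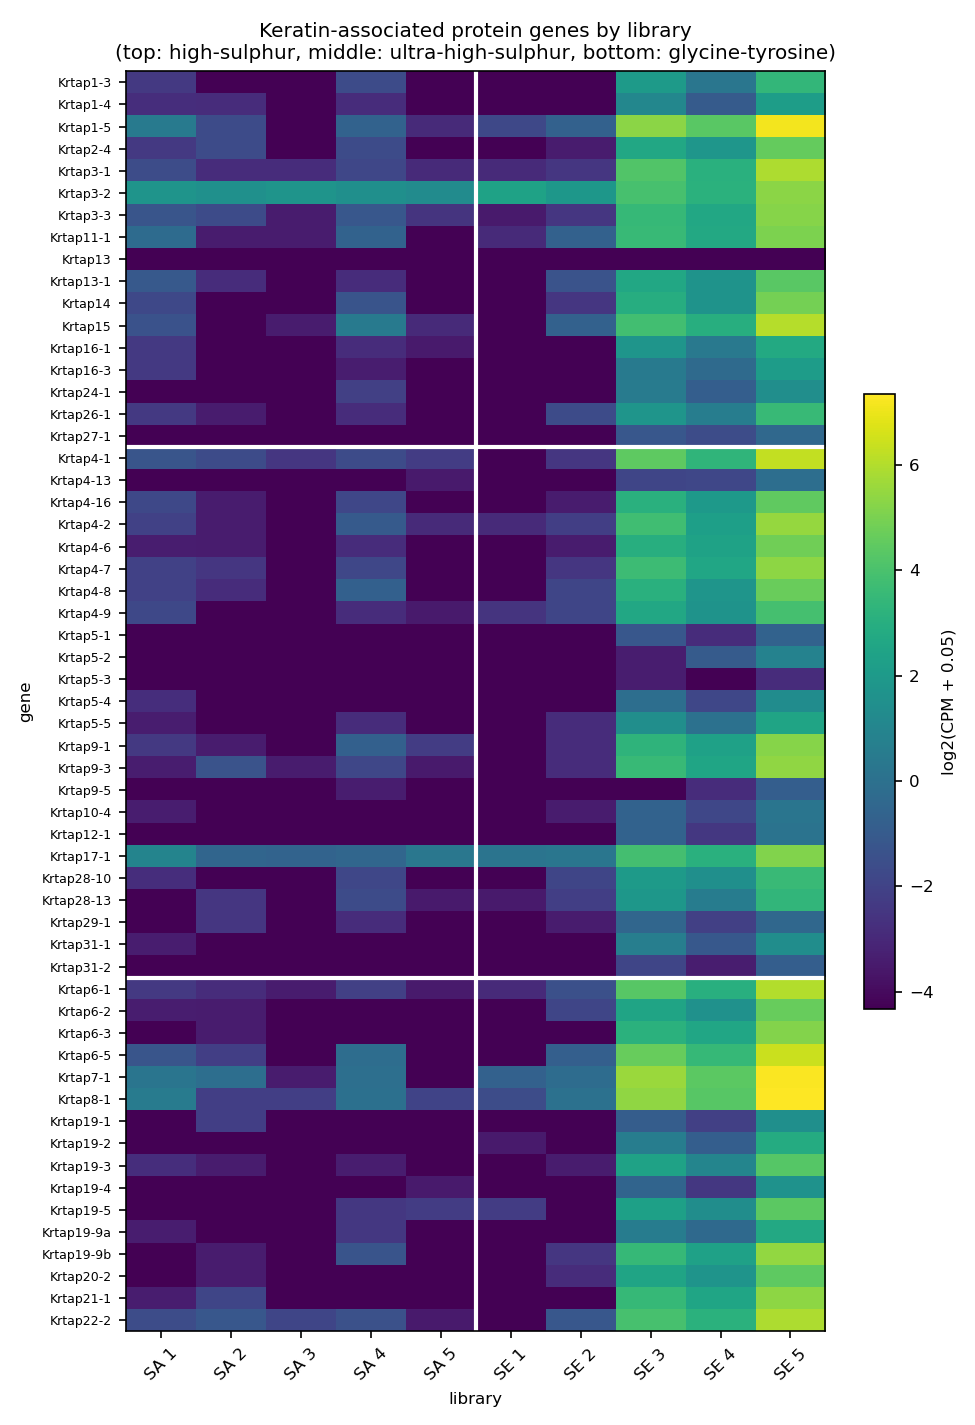
Level of every Krtap gene (lines of the map, grouped by class) in each library (columns), as log2 of CPM plus 0.05. SE 3, SE 4 and SE 5 are high over nearly the whole family, and Krtap3-2 and Krtap17-1 have signal in all 10 libraries.

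**Figure D2:**
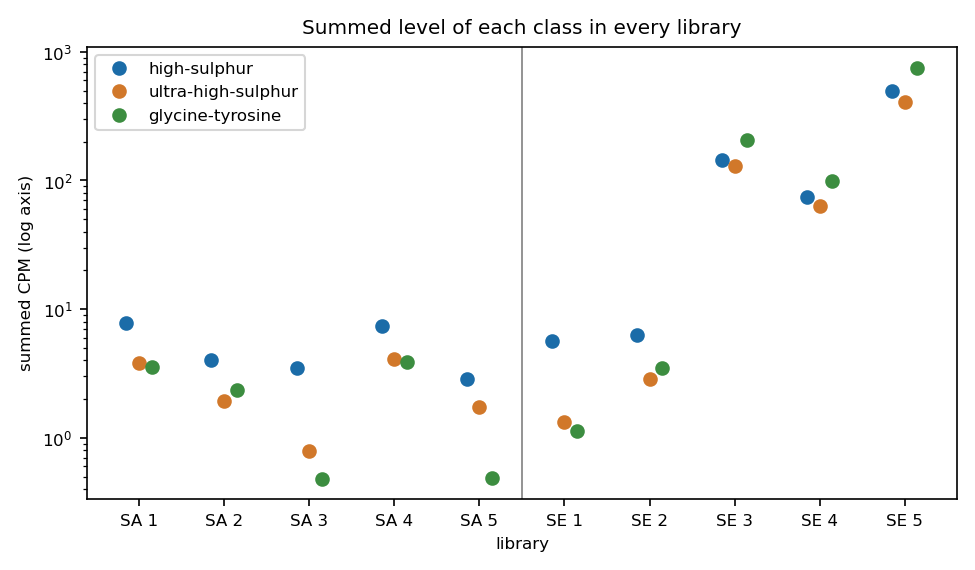
Summed CPM (log axis) of the high-sulphur, ultra-high-sulphur and glycine-tyrosine genes in each of the 10 libraries, 1 point per class and library. All 3 classes are higher in SE 3, SE 4 and SE 5 than in any of the other 7 libraries.

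The pattern held gene by gene. Of 56 members with a read, 54 were higher in each of SE 3, SE 4 and SE 5 than in any of the other 7 libraries, as were 9.42% of the 29103 genes with a read. The 2 exceptions, Krtap5-3 and Krtap9-5, both ultra-high-sulphur, had 3 and 14 reads in all. Among the 42 members with at least 10 reads in each of SE 3, SE 4 and SE 5, 26 stood over 10-fold above the highest of the other 7, against 0.311% of genes with such reads, and the other 16 stood 1.68-fold to 9.21-fold above it. No member lay below the other 7 in all of SE 3 to SE 5 (0 of 56, background 6.75%). In 53 of the 57, over 90% of all reads came from the 3 libraries. Of 57 members, 19, 25, 45, 18 and 38 had no read in SA 1 to SA 5, and 43 and 23 had none in SE 1 and SE 2. The counts in this and the last sentence were not computed over all genes.

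High-sulphur proteins are among the main matrix proteins of the shaft cortex. Their summed level was 2.87 to 7.78 CPM in the 7 libraries and 145, 74.3 and 494 CPM in SE 3, SE 4 and SE 5, a gap of 9.55-fold. Krtap1-5 had the highest level per length among them. It was at 1.31, 0.264, 0, 0.587 and 0.0808 CPM in SA 1 to SA 5 and at 0.242, 0.571, 39.4, 20.3 and 141 CPM in SE 1 to SE 5. SE 1 and SE 2 lie among the SA values, and the other 3 do not. Krtap3-1 was at 0.281, 0.088, 0.0877, 0.226 and 0.0808 CPM in SA and at 0.0806, 0.132, 18, 8.47 and 60.1 CPM in SE, with SE 2 inside the SA range and SE 1 just below its lower end. Krtap11-1 was at 0.797, 0.044, 0.0438, 0.587 and 0 CPM in SA and at 0.0806, 0.571, 11.5, 6.64 and 33.0 CPM in SE. Krtap15, whose exons overlap those of another gene of the same strand over 19.1% of their length, was at 0.328, 0, 0.0438, 1.31 and 0.0808 CPM in SA and at 0, 0.571, 13.8, 7.97 and 66.9 CPM in SE. SA 4 was the highest of the 7 low libraries for that gene.

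Krtap3-2, also high-sulphur, was the least uneven of the tested members. It was at 3.23, 2.86, 3.24, 2.80 and 2.46 CPM in SA and at 5.24, 3.56, 15.3, 8.79 and 39.9 CPM in SE, so every SA library lay below every SE library. This was the case for 1 of the 8 members tested and for 0.917% of all tested genes. Its reads made up 18.2% to 68.5% of the family's reads in the 7 low libraries and 2.41% to 3.74% in SE 3 to SE 5. Since 28.9% of its windows of 50 bases occur in other genes, its level is uncertain.

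Ultra-high-sulphur genes carry the most cysteine, and several subfamilies are known from the hair cuticle. Their summed level was 0.789 to 4.06 CPM in the 7 libraries and 130, 62.8 and 409 CPM in SE 3, SE 4 and SE 5, a gap of 15.5-fold. The 8 members of subfamily 4 made up most of it, with 79.2, 36.5 and 256 CPM in those 3 libraries and at most 1.90 CPM in the others. Krtap4-1, the highest per length, was at 0.375, 0.264, 0.132, 0.271 and 0.162 CPM in SA and at 0, 0.132, 22.1, 9.75 and 76.3 CPM in SE. Krtap9-3 was at 0.0469, 0.352, 0.0438, 0.226 and 0.0404 CPM in SA and at 0, 0.0879, 11.5, 5.81 and 42.3 CPM in SE. For both genes SE 1 was at 0. The 5 members of subfamily 5 on chromosome 7, a subfamily of the cuticle, reached only 4.05, 1.74 and 10.5 CPM together in SE 3, SE 4 and SE 5.

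Krtap17-1 was measurable everywhere. It was at 1.87, 0.660, 0.614, 0.677 and 1.17 CPM in SA and at 1.09, 1.14, 14.6, 8.47 and 35.6 CPM in SE. Its lowest value in SE 3 to SE 5 was 4.52-fold above its highest in the other 7, less than the gap of the class sum. Krtap28-13, on chromosome 1, was low, at 0 to 0.271 CPM in SA and at 0.0403, 0.176, 3.61, 1.47 and 10.1 CPM in SE.

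Glycine-tyrosine genes showed the widest gap of the 3 class sums. Their summed level was 0.482 to 3.88 CPM in the 7 libraries and 207, 98.2 and 754 CPM in SE 3, SE 4 and SE 5, a gap of 25.3-fold. Without Krtap3-2 and Krtap17-1, the gaps of the high-sulphur and ultra-high-sulphur sums were 14.2-fold and 16.1-fold. Krtap8-1 was at 1.41, 0.176, 0.175, 0.948 and 0.202 CPM in SA and at 0.282, 0.967, 42.5, 20.1 and 163 CPM in SE. Krtap7-1 was at 1.12, 0.880, 0.0438, 0.903 and 0 CPM in SA and at 0.564, 0.835, 47.7, 20.9 and 154 CPM in SE. In both, SE 1 and SE 2 lie within the SA range. Krtap6-5 was at 0.375, 0.176, 0, 0.858 and 0 CPM in SA and at 0, 0.527, 25, 11.1 and 84.7 CPM in SE. Krtap22-2 was at 0.281, 0.396, 0.219, 0.316 and 0.0404 CPM in SA and at 0, 0.396, 15.6, 8.79 and 60.1 CPM in SE. Krtap19-2 had no SA read, and its SE mean of 1.84 CPM was at least 69.7-fold higher than the 0.0264 CPM that 3 reads over the whole SA group would give. That mean rests on SE 5, and without it the SE mean was 0.514 CPM and the bound 19.5-fold. Krtap19-9a of this class is annotated as a processed pseudogene.

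Per length, glycine-tyrosine genes were also the highest of the family in SE 5. Krtap8-1 reached 284 CPM per kilobase, Krtap7-1 248 and Krtap22-2 165. The highest high-sulphur gene, Krtap1-5, reached 135 and the highest ultra-high-sulphur gene, Krtap4-1, 75.1. Class medians in SE 5 were 53.4 CPM per kilobase for glycine-tyrosine, 27.1 for high-sulphur and 7.44 for ultra-high-sulphur genes. These levels were not corrected for stretches shared with other genes. Both genes with over 50% of their windows shared, Krtap4-13 and Krtap5-1, are ultra-high-sulphur. Single genes of the classes overlapped, with a range of 5.54 to 284 in the first class and 0 to 135 in the second.

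The make-up of the family's reads turned on Krtap3-2 and Krtap17-1. With all members, glycine-tyrosine genes took 42.9% of the reads in SE 3 (95% Wilson interval 42.0 to 43.8), 41.7% in SE 4 (40.4 to 43.1) and 45.5% in SE 5 (45 to 46). In the 7 low libraries they took 9.52% to 28.2%, and the highest of these, SA 2, had an interval of 22.2 to 35. High-sulphur genes took 30.1%, 31.6% and 29.8% in SE 3, SE 4 and SE 5 and 48.2% to 73.1% in the others, while the ultra-high-sulphur share overlapped, at 24.7% to 27% against 16.3% to 34.1%. The intervals cover counting error only. Krtap3-2 and Krtap17-1 together supplied 22.6% to 81.5% of the reads in the 7 low libraries, and without them 215, 108, 20, 263 and 36 reads remained in SA 1 to SA 5 and 45 and 182 in SE 1 and SE 2. Without both genes, a choice made after the data were seen, glycine-tyrosine genes took 45.7%, 45% and 47.7% in SE 3, SE 4 and SE 5 and 32.7% to 62.2% in the 7 low libraries, so the shares overlap. The high-sulphur share then also overlapped, at 28.7% to 30% against 24.1% to 45.1%.

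**Figure D3:**
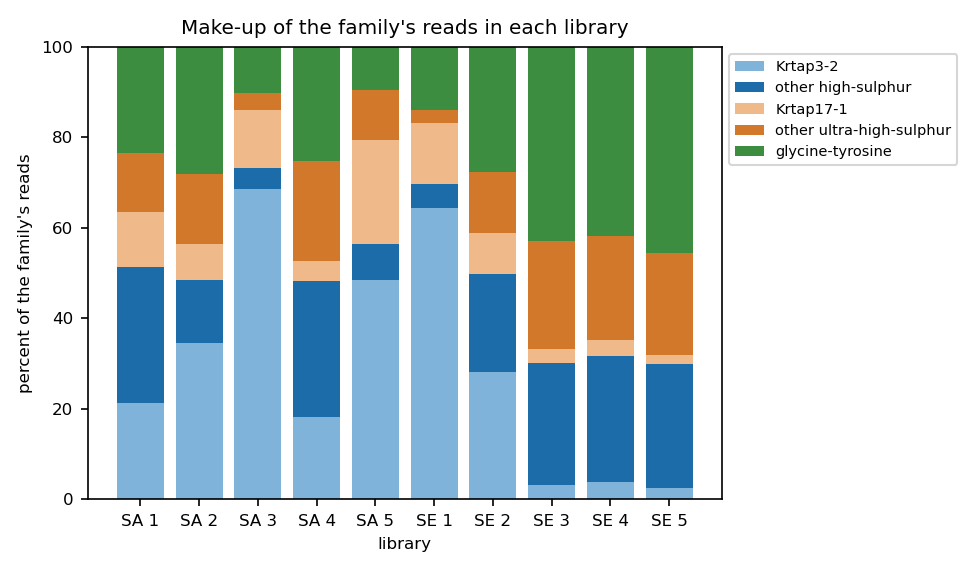
Share of the family's reads (percent) that fell on high-sulphur, ultra-high-sulphur and glycine-tyrosine genes in each of the 10 libraries. Glycine-tyrosine genes hold 41.7% to 45.5% in SE 3, SE 4 and SE 5 and 9.52% to 28.2% in the other 7 libraries, where Krtap3-2 and Krtap17-1 take 22.6% to 81.5% of the reads; without these 2 genes the shares overlap.

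Among the 3 libraries the order was the same for every member that could be compared. Of 42 members with at least 10 reads in each, 42 were highest in SE 5, next in SE 3 and lowest in SE 4. The share of all genes with this order was not computed. Members with fewer reads did not all keep it, as Krtap5-2 was at 0.0445 CPM in SE 3 and 0.458 CPM in SE 4. The median ratio of SE 5 to SE 3 was 3.39 and that of SE 3 to SE 4 was 2.05. By class the first ratio had a median of 3.28 in high-sulphur genes (15 genes, 1.95 to 4.83), 3.12 in ultra-high-sulphur genes (13 genes, 2.09 to 3.90) and 3.88 in glycine-tyrosine genes (14 genes, 3.23 to 4.71). All 14 glycine-tyrosine genes had a ratio above 3, as did 9 of the high-sulphur and 7 of the ultra-high-sulphur genes. The lowest ratios were those of Krtap24-1, Krtap16-1 and Krtap5-5 and the highest that of Krtap15. These are ratios of single libraries, with no replicate, and the classes overlap.

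**Figure D4:**
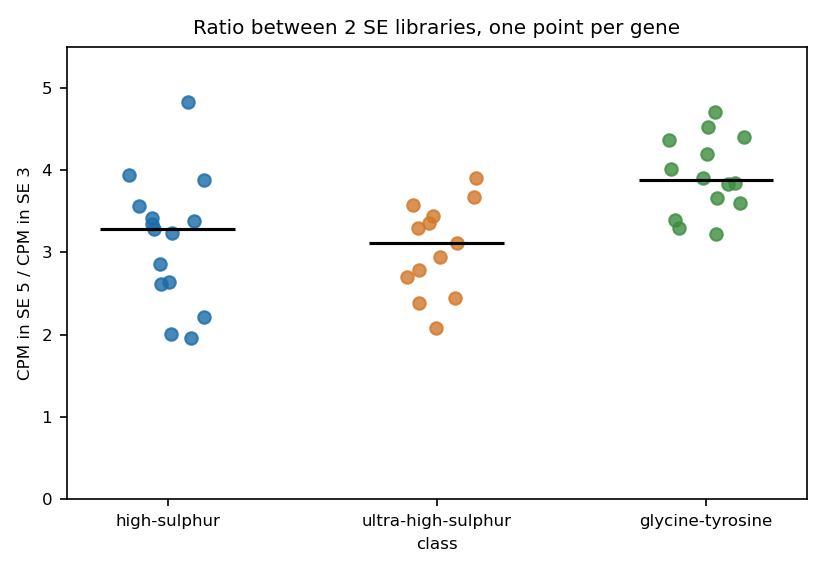
CPM in SE 5 divided by CPM in SE 3 for each Krtap gene with at least 10 reads in SE 3 and in SE 4, by class, with bars at the class medians. Every gene is above 1, and the medians are 3.28, 3.12 and 3.88 for high-sulphur, ultra-high-sulphur and glycine-tyrosine genes.

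The planned comparison asked whether skin with S. aureus and skin with S. epidermidis differ. No Krtap gene passed the threshold: of 8 members that passed the filter on low counts, 0 had an edgeR adjusted p under 0.05 (quasi-likelihood test, Benjamini-Hochberg over all genes), against 13 of 16909 genes, or 0.0769%. All 8 had lower fitted levels in SA, with a median log2 fold change, SA minus SE, of -5.97 against -0.01 over all genes tested. All 8 had an unadjusted p under 0.05, as did 11.1% of all genes; in limma voom 1 of the same 8 did, with adjusted p of 0.407 to 0.615. The filter needs reads in at least 5 libraries, so these 8 are the members with enough reads beyond SE 3 to SE 5 and do not stand for the family. They were Krtap1-5, Krtap3-2, Krtap11-1 and Krtap15 (high-sulphur), Krtap17-1 (ultra-high-sulphur), and Krtap6-5, Krtap7-1 and Krtap8-1 (glycine-tyrosine).

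The sizes were large and their errors were too. Krtap1-5 had a log2 fold change of -6.51 ± 1.53 (standard error, edgeR adjusted p = 0.149), Krtap6-5 one of -6.44 ± 1.57 (0.162) and Krtap8-1 one of -6.30 ± 1.47 (0.149). Krtap7-1 had -6.26 ± 1.45 (0.149), Krtap15 -5.67 ± 1.5 (0.189) and Krtap11-1 -5.16 ± 1.31 (0.172). The values nearest to 0 were those of Krtap17-1, at -3.60 ± 0.886 (0.167), and Krtap3-2, at -2.31 ± 0.562 (0.162). Class medians were -5.41 for the 4 high-sulphur genes and -6.30 for the 3 glycine-tyrosine genes. Without the filter 56 members were tested, 0 were called (background 0.0653%), 55 had an unadjusted p under 0.05 (background 8.5%; the exception is Krtap5-3), and the median log2 fold change was -5.79, or -5.73 with the 7 members that lack SA reads set at their bound of 3 reads.

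The calls turned on which SE libraries entered. Without SE 3, SE 4 and SE 5, the 8 tested members had a median log2 fold change of -0.12, 5 of 8 were negative and 0 were called. Without SE 1, 11 of 11 tested members were called lower in SA (background 1.32%, edgeR adjusted p 0.0309 to 0.0472), and without SE 2, 7 of 11 (background 0.888%). In both fits the filter needs reads in fewer libraries, and 11 members passed it in place of 8. SE 3 to SE 5, where the family is high, count towards that need. Of the 8 members of the main fit, 8 were called without SE 1 and 6 without SE 2. With no filter on low counts, a pair of fits chosen after the data were seen, 46 of 56 were called without SE 1 (background 1.47%) and 46 of 56 without SE 2 (background 1.35%). DESeq2 on all 10 libraries called 7 of 8 lower in SA (background 1.76%), all but Krtap15 (DESeq2 adjusted p = 0.0625). In the authors' deposited table, also made with DESeq2 per the submitters' notes, 47 members had an adjusted p. There 1 was under 0.05, Krtap3-2 at 0.0442 (background 1.15%), and Krtap17-1 was next at 0.115. Of the 7 DESeq2 calls above, those other than Krtap3-2 were thus not under 0.05 in the authors' table. Krtap8-1, for one, was at 0.317 there, against a DESeq2 adjusted p of 0.00049 here. The cause of the difference was not tested.

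Other genes of the hair follicle were read from lists, and 0 genes of any list were called in edgeR. Of the hair shaft keratins, the filament proteins that keratin-associated proteins surround, 15 were in the table and 9 were tested, all 9 with negative values, with a median log2 fold change of -5.19. Without SE 3, SE 4 and SE 5 that median was 0.27. Their summed level was 7.86 to 16.3 CPM in the 7 libraries and 171, 101 and 524 CPM in SE 3, SE 4 and SE 5. Of the 15, 14 were higher in all 3 than in any of the 7, as were 9.42% of all genes with a read. The exception was Krt32. Krt34, a cortex keratin, was at 0 to 0.677 CPM in the 7 libraries and at 14, 6.96 and 42.9 CPM in SE 3, SE 4 and SE 5. Krt31 was at 0.0806 to 0.484 CPM in the 7 and at 8.46, 3.98 and 19.6 CPM in the 3, and Krt35 at 0.161 to 2.15 CPM and at 7.17, 5.68 and 26 CPM.

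The inner root sheath, the layer that moulds the growing shaft, gave a like picture. Its 10 genes summed to 101 to 185 CPM in the 7 libraries and 918, 526 and 2908 CPM in SE 3, SE 4 and SE 5. The median log2 fold change was -4.76, or -0.36 without those 3 libraries. Of the 10 genes, 9 were higher in all 3 libraries (background 9.42%). Gata3, also expressed by lymphocytes, was the exception. Krt71 was at 8.53, 1.36, 1.32, 10.6 and 0.566 CPM in SA and at 1.85, 20.1, 198, 102 and 674 CPM in SE. Krt25 was at 0.0404 to 11.7 CPM in the 7 libraries and at 79.5, 41.1 and 270 CPM in the 3. Of 6 genes listed under shaft assembly (Dsg4, Padi3, Tgm3, S100a3, Lrrc15 and Crym), 5 were higher in all 3 libraries (background 9.42%). Among them was S100a3, a calcium-binding cuticle protein, at 0.566 to 1.87 CPM in the 7 and 9.79, 5.40 and 23.2 CPM in the 3. The exception was the transglutaminase gene Tgm3.

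Transcription factor genes of the follicle differed far less. The 6 of the list summed to 52.5 to 75.0 CPM in the 7 libraries and 106, 117 and 169 CPM in SE 3, SE 4 and SE 5. The median log2 fold change was -0.53, or 0.03 without those 3 libraries. Hoxc13 was at 8.97 to 15.5 CPM in the 7 libraries and at 28.5, 33.3 and 48.0 CPM in the 3, so that SE 4 was above SE 3, the reverse of the order of the Krtap genes. Foxn1, the factor lost in nude mice, was at 6.89 to 11.6 CPM and at 12.2, 12.9 and 21.0 CPM. Msx2 was at 4.75 to 9.75 and at 13.8, 17.2 and 23.5 CPM, Dlx3 at 14.7 to 25.4 and at 36.4, 37.3 and 59.4 CPM, and Foxq1 at 5.46 to 7.57 and at 8.50, 8.42 and 9.19 CPM. Lef1, the factor of Wnt signalling in the hair matrix, overlapped, at 5.92 to 9.18 CPM and at 6.28, 7.78 and 8.13 CPM.

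**Figure D5:**
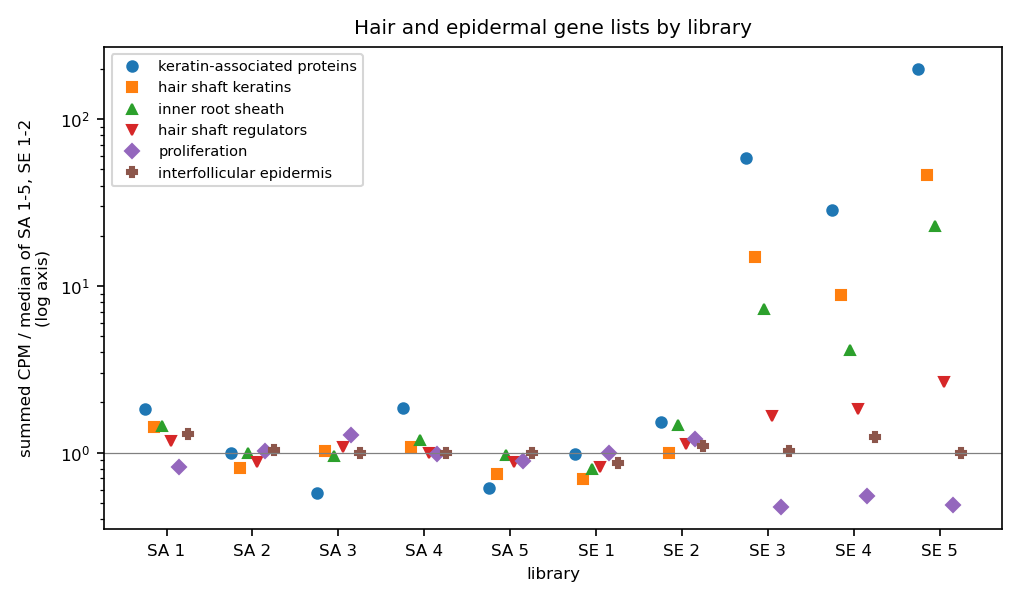
Summed CPM of the Krtap genes and of 5 gene lists in each of the 10 libraries, divided by the median of the same sum over SA 1 to SA 5, SE 1 and SE 2 (log axis, line at 1). The Krtap genes and the hair shaft keratin and inner root sheath lists are high in SE 3, SE 4 and SE 5, and the proliferation list is low there.

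Among markers of other skin cells, the proliferation, sebaceous gland and melanocyte sums were lower in SE 3, SE 4 and SE 5, where the family was higher. The part of any of these markers in the result was not tested. All 8 proliferation genes were lower in SE 3, SE 4 and SE 5 than in any of the other 7 libraries (background 6.75%), with sums of 204, 237 and 209 CPM against 357 to 552. The 6 sebaceous gland genes summed to 3119, 3203 and 2979 CPM against 3736 to 5431, with 3 of 6 lower in all 3 libraries (Scd1, which holds most of the sum, Mgst1 and Elovl3) and Awat1, Awat2 and Soat1 not. The 7 melanocyte genes summed to 68.0, 97.3 and 89.8 CPM against 100 to 188, with 2 of 7 lower in all 3 (Dct and Pmel). The sums of the 9 genes of the epidermis between follicles overlapped, at 10552, 12797 and 10251 CPM against 9020 to 13411. So did the sums of the 7 skeletal muscle, 6 adipocyte and 6 fibroblast genes. By gene, Krt14 of the epidermis was higher in all 3 libraries than in any of the other 7. Mylpf of muscle and Retn of adipocytes were lower in all 3, and no other gene of these lists was separated. No gene of these lists was at 0 in all 10 libraries.

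The tested genes outside the family whose log2 CPM was most like the mean of the 8 tested members over the 10 libraries were Krt33a (Pearson r = 0.996), Krt34 (0.995), Tchh (0.993), Krt87 (0.992) and Prr9 (0.991). Tchh encodes trichohyalin of the inner root sheath and was at 8.33 to 25.2 CPM in the 7 libraries and at 330, 156 and 1204 CPM in SE 3, SE 4 and SE 5. The libraries fall into 2 clusters, so r was also taken over the 7 low libraries, where it was 0.954, 0.969, 0.929, 0.911 and 0.905 in the same order. All points share their libraries, and these values are a description.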

How the data were processed

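RNA of whole skin was measured in 10 libraries, grouped by the sample titles. The deposited counts are whole reads per Ensembl gene, which the authors deposited. The submitters' processing notes name the aligner STAR 2.4.2a, SAMtools, the counter HTSeq 0.6.1p1 and the build GRCm38 (mm10). Annotation release, counting mode and strand setting: not given in the sources used here. Whether reads of a gene were separated from those of one overlapping it on the other strand is therefore not known. Such overlap concerns 1 member, Krtap24-1, over 9.52% of its exonic length. The 5 rows that name no gene, 30.5% to 34.6% of listed reads, were left out. The authors' second table, made with DESeq2 per those notes, gave symbols and adjusted p-values. Its deposited mean normalized counts (a signal) and deposited log2 fold changes entered no result.

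The test was run in edgeR 4.0.16 under R 4.3.3 (filterByExpr, minimum count 10, TMM, two-sided quasi-likelihood test without covariates, Benjamini-Hochberg over all genes, threshold 0.05, prior count 0.125). A standard error is the fold change divided by the root of its F statistic. CPM were TMM-scaled. DESeq2 1.42.0 and limma 3.58.1 were alternatives. The code was tested on simulated data. Replicate pairs differed beyond sampling noise, with a chi-square per degree of freedom of 4.18 to 28.7 in SA and 11.1 to 64.6 in SE. Ensembl IDs of all 57 members matched the GENCODE annotation.

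Members, classes and lists were chosen with earlier results of these data known. Named members are the 3 highest per length in each class, the 3 tested members with the most and the 3 with the least negative fold change, and the 3 with the largest and smallest SD of log2 CPM among those with a mean of at least 1 CPM. The 5 genes most like the family and a fixed set of hair genes were also named; others were named for their values. Alternatives were other scalings, filters and tools, a replicate block and libraries left out.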

Additional observations from a re-analysis of the deposited data

Results flagged for a closer look

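In 34 sets of 5 libraries (a named member or a class sum in 1 group), the gap from the highest or lowest library to its neighbour was divided by the range of the 5. For 5 values drawn from 1 normal distribution, chance puts about 1 in 20 such sets above 0.71. The SE values, low in SE 1 and SE 2 and high in SE 3 to SE 5, are not of that kind. That rate therefore does not apply to them. In the SE group, SE 5 stood that far above the rest for 8 values. The ratio was 0.721 for Krtap1-5, 0.793 for Krtap15, 0.728 for Krtap9-3, 0.74 for Krtap8-1 and 0.74 for Krtap22-2. It was 0.713 for the sum of the family, 0.714 for the high-sulphur sum and 0.727 for the glycine-tyrosine sum. These values share SE 5 and are not independent. In the SA group, Krtap15 had a ratio of 0.749, with 1.31 CPM in SA 4 and 0.328 CPM in the next library, SA 1.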

How the results depend on the processing

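The direction of the family held in every fit except those without SE 3, SE 4 and SE 5, and the calls did not hold. All 8 tested members stayed lower in SA under RLE, upper-quartile and total scaling, limma voom (median log2 fold change -4.27, 1 of 8 at an unadjusted p under 0.05) and DESeq2, and 0 were called except in DESeq2, which called 7 members and 298 genes. Leaving out 1 library at a time gave 7 to 225 called genes, 0 to 11 called members, and medians of -6.52 to -4.39 for the family, -6.11 to -3.99 for high-sulphur, -5.99 to -2.65 for ultra-high-sulphur and -6.63 to -4.90 for glycine-tyrosine genes. The 225 genes and 11 members came without SE 1, and 152 genes and 7 members without SE 2. The filter passed 8 or 11 members in these fits, so the family median did not always rest on the same genes. The ultra-high-sulphur median rested on 1 gene, Krtap17-1, in some fits and on 4 genes in others. Krtap17-1 alone ranged from -3.94 to -2.65. With no filter on low counts, leaving out 1 library (added after seeing the data) gave 0 to 46 called members, 46 without SE 1 and 46 without SE 2. The ultra-high-sulphur median was -5.77 with no filter, over 24 genes in place of 1. A stricter filter left 2 members, with a median of -2.96, and 1 high-sulphur gene at -2.31. Without SE 3, SE 4 and SE 5, 41 genes and 0 members were called, the median was -0.12, and class medians were -0.0075, -0.15 and -0.10 for high-sulphur, ultra-high-sulphur and glycine-tyrosine genes. There Krtap1-5 (0.13), Krtap15 (0.33) and Krtap6-5 (0.12) turned positive, at edgeR adjusted p of 0.985, 0.969 and 0.987. Without these libraries and without the filter, 17 of 50 members were negative and the median was 0.59. Over all alternatives adjusted p ranged from 0.00277 to 0.985 for Krtap1-5, 0.00049 to 0.985 for Krtap8-1, 0.0152 to 0.542 for Krtap3-2 and 0.0427 to 0.969 for Krtap15. The cause of these shifts was not tested. Most members had few reads outside SE 3 to SE 5, so differences among the other 7 libraries are limited by depth.

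Replicate numbers are shared by the groups, but same-numbered libraries did not deviate together (correlations of -0.288 to 0.0715, best with the own number for 1 of 5 numbers), so they share only a number. With the replicate block 0 members and 10 genes were called, the median of the members was -4.85 and their edgeR adjusted p lay between 0.534 and 0.627.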

Other observations

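The 7 libraries with little Krtap RNA differed among themselves. Leaving out Krtap3-2 and Krtap17-1, SA 4, SA 1 and SE 2 held the most family reads, at 263, 215 and 182, and SA 3, SA 5 and SE 1 the fewest, at 20, 36 and 45. Krt71 of the inner root sheath was at 10.6, 8.53 and 20.1 CPM in the first 3 and at 1.32, 0.566 and 1.85 CPM in the last 3. SA 2 lay between them in Krtap reads, at 108, and was at 1.36 CPM of Krt71. Both groups are found at either end.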
